A study of Homo sapiens with 3 samples.

Results

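The transporters that carry amino acids across the plasma membrane were examined in Molm13 cells, an acute myeloid leukemia line with an internal tandem duplication of the receptor FLT3, after exposure to pyrvinium. Chosen by name and substrate were 10 of the 25702 genes in the count files: SLC7A11, SLC3A2, SLC7A5, SLC43A1, SLC1A4, SLC1A5, SLC38A1, SLC38A2, SLC7A1 and SLC6A9. The choice was made with earlier results of these data known. Counts among the 10 set beside all genes therefore describe the set and do not test it. All 10 were among the 12879 genes that had at least 10 counts in at least 1 library and were tested. RNA-seq was performed on 3 libraries of asynchronous cells grown in RPMI with fetal bovine serum. They came from cells given the vehicle DMSO, 50 nM pyrvinium (labelled PP) or 100 nM pyrvinium for 6 h, with 1 library for each condition and no replicate. The groups differ in nothing else that the labels give, and all rest on a single cell line.

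Each library held between 22677038 and 24075123 counts. Because no condition was repeated, the differences below have no replicate check, and every interval and p-value on a pair of libraries covers counting error only. The binomial test compared the libraries, not the conditions. The comparisons of 50 nM and of 100 nM with DMSO use the same DMSO library and are therefore not independent of each other. In bulk RNA, fewer cells of a type and less RNA per cell cannot be told apart. All 9 myeloid markers looked at were expressed, with a summed level of 930 to 999 TPM (counts per length of gene, scaled to the same total in every library). Markers of lymphoid, erythroid, epithelial, hepatic, fibroblast and endothelial cells summed to 10.0 to 12.8 TPM, of which PECAM1 made up most, and CD3E and EPCAM were at 0 counts in all 3 libraries. FLT3 itself had 6304 counts in DMSO, 9012 at 50 nM and 11181 at 100 nM.

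Amino acids enter a cell through families of membrane proteins that differ in substrate and in coupling. Some are exchangers, which import one amino acid while exporting another, and others use the sodium gradient to concentrate their substrate. Several light chains of the SLC7 family reach the cell surface only when bound to the glycoprotein SLC3A2, their common heavy chain. Cystine imported by SLC7A11 supplies cysteine for glutathione, and leucine imported by SLC7A5 is a signal that reaches the mTORC1 kinase through upstream sensors. When amino acids run short or the endoplasmic reticulum is stressed, cells translate the transcription factor ATF4, which binds C/EBP-ATF response elements in many genes of amino acid uptake and synthesis. Uptake of glutamine, leucine and cystine has been studied as a need of leukemia cells.

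The sequences shown first are the matches to the core of that element, TGATGNAA, because members of the group are known targets of ATF4. Both strands were searched from 1 kb before to 1 kb after the start of each gene listed in the count files (GRCh37, the build of the counts, also called hg19). Of the 10 transporters, 7 held at least 1 match, against 17.9% of the 12847 tested genes with a window. At least 2 matches were found in 3 of the 10, against 2.44% of genes. The variant TGATGCAA, looked at after the files were seen and contained in TGATGNAA, was found in 7 of the 10 and in 3.47% of genes. Each site below is written 5′ to 3′ on the strand that reads the core, with the core in capitals and 8 bases on either side.
SLC7A11 chr4:139163583-139163606: catgtggcTGATGCAAacctggag
SLC7A11 chr4:139163564-139163587: ctaaatgaTGATGCAAattctcca
SLC7A5 chr16:87902417-87902440: gggcgtagTGATGCAAggatgcag
SLC1A4 chr2:65216518-65216541: gctggagaTGATGCAAacgggagc
SLC38A1 chr12:46664038-46664061: tccagtggTGATGAAAaagcaaaa
SLC38A1 chr12:46662575-46662598: ggagattcTGATGCAAtcggcccg
SLC38A2 chr12:46765828-46765851: aagaaaacTGATGCAAtatcgatc
SLC7A1 chr13:30169803-30169826: cgcactgcTGATGAAAcctggcgc
SLC7A1 chr13:30169279-30169302: gtggtgcaTGATGCAAcaccgagt
SLC6A9 chr1:44497044-44497067: cgggaggcTGATGCAActttccct

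The pair of matches in SLC7A11 lay upstream of the gene, starting at positions -95 and -76 relative to its listed start, on opposite strands. The matches of SLC7A5 at position 669 and of SLC38A2 at position 803 were intronic, each on the strand opposite to the gene. In SLC7A1, the match at position 8 was in the 5′ UTR and that at position 532 in an intron. SLC6A9 held its match at position 76 and SLC38A1 at position 619, both in the UTR, and SLC38A1 a further match at position -845. The match of SLC1A4, at position 948, was in an exon of the listed annotation and in an intron of GENCODE. No match was found within these windows for SLC3A2, SLC43A1 and SLC1A5. A match describes the letters only, and whether a factor binds there was not measured.

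The RefSeq promoter table (GRCh38.p14, from 250 bases before to 50 after each gene's start) held 9 of the 10 genes, all but SLC7A11. In these shorter windows, TGATGNAA was found in 3 of 9, against 1.66% of the 9705 tested genes with an entry. The core of the antioxidant response element, TGACNNNGC, which the factor NFE2L2 reads, was found in 3 of 9, against 15.5%, and the E-box CACGTG in 2 of 9, against 10.7%. The matches for the heavy chain SLC3A2, whose window in the other build held none, and for the antioxidant core are written below in the same way, with the matched letters in capitals. The first has fewer bases before the core, because the window ends there.
SLC3A2 chr11:62881728-62881748: ggagcTGATGTAAggagtcct
SLC3A2 chr11:62881654-62881678: agggtgggTGACTCAGCgtcctcct
SLC7A5 chr16:87869493-87869517: ggggttccTGACGCAGCtgcgggcg
SLC7A1 chr13:29595757-29595781: cccggcggTGACGCGGCcgagcggg

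The promoter matches of SLC3A2 and SLC38A1 to TGATGNAA do not occur in their wider windows, so for these genes the start in this table is not the start listed in the count files. For SLC3A2 the TGATGNAA match was at position 38 on the opposite strand, and the antioxidant core at position -37. The other promoter matches to TGATGNAA were those of SLC38A1 at position -4 and SLC7A1 at position 8. The E-boxes were those of SLC7A5 at position -130 and SLC43A1 at position -112.

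In DMSO, the transporters covered a 597-fold range of level. SLC1A5 was the highest at 288 TPM, followed by SLC7A5 at 254, SLC3A2 at 200 and SLC38A2 at 142 TPM. SLC43A1 and SLC7A1 were next at 75.7 and 75.1 TPM, and their counting intervals overlapped, so these neighbours could not be ordered. SLC38A1 was at 44.2, SLC1A4 at 29.1 and SLC7A11 at 6.80 TPM. SLC6A9 was at the bottom with 0.483 TPM, from 21 counts. The other 8 neighbouring pairs had intervals that did not overlap. At 50 nM the only overlapping neighbours were SLC1A5 at 357 and SLC7A5 at 354 TPM, and at 100 nM none overlapped. By then SLC7A5, at 436 TPM, was above SLC1A5, at 414 TPM, and the range had narrowed to 255-fold.

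**Figure D1:**
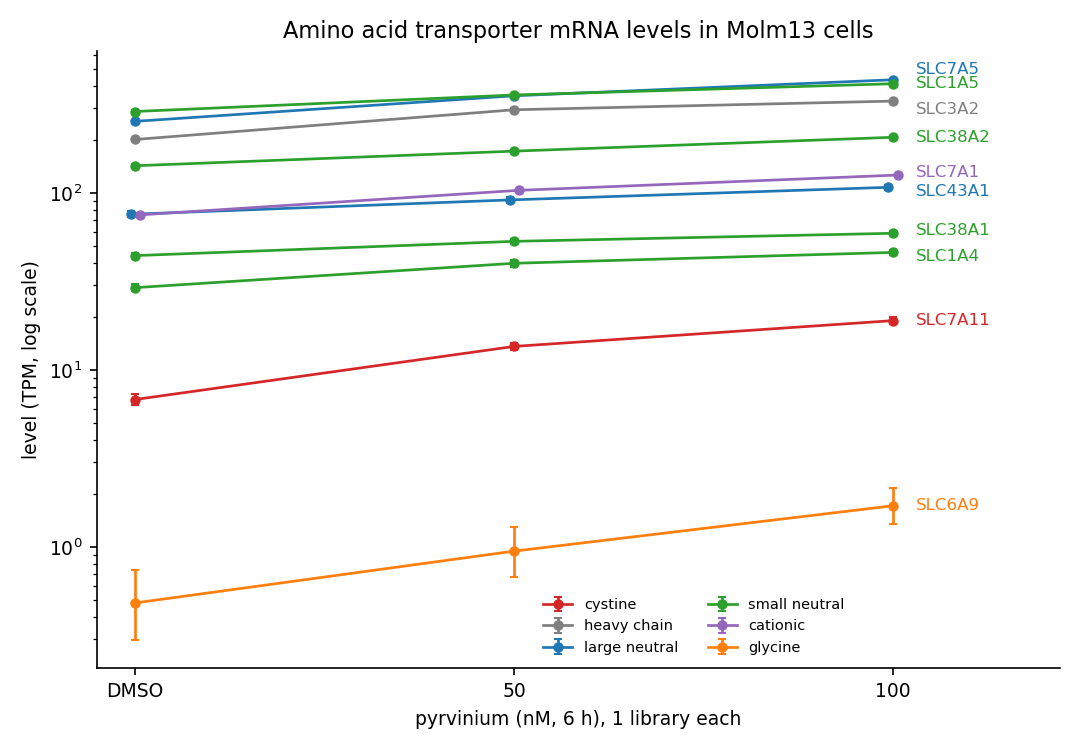
Level of each of the 10 transporters in TPM on a log axis, in DMSO and after 50 or 100 nM pyrvinium for 6 h, with 1 library per point, colours for the substrate class and exact Poisson 95% intervals as bars. All 10 lines climb from left to right, and SLC6A9 and SLC7A11, the lowest at the start, are the steepest.

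All 10 transporters were higher with 100 nM pyrvinium than with DMSO, with the interval of the log2 fold change above 0. Over all genes tested, 23.8% had such an interval and 25.5% had one below 0. Of the 10, 2 were called, that is at least 2-fold higher with an adjusted p of at most 0.05: SLC7A11 and SLC6A9. Among all genes 1.84% were called higher and 2.35% in either direction. By the same binomial test 6 of the 10 were at least 1.5-fold higher with an adjusted p up to 0.05, against 4.43% of genes, and all 10 passed that p without a fold threshold, against 21.2%. The spread between replicates is unknown here, so a biological coefficient of variation was also assumed. With edgeR's exact test SLC7A11 and SLC6A9 were called at a value of 0.1, against 0.885% of genes, and 0 of the 10 at a value of 0.2, against 0.0932%. At 0.2 these 2 had an unadjusted p under 0.05, as did 1.86% of genes in the higher direction. The median log2 fold change of the transporters was 0.66, and that of all genes tested -0.0042. The values went down to 0.39, for SLC38A1.

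At 50 nM all 10 were also above DMSO with intervals above 0, against 17.9% of genes. None was called at 2-fold, against 0.776% of genes called higher, although SLC7A11 at 0.98 and SLC6A9 at 0.94 on the log2 scale lay just under that mark, and 9 of the 10 passed the adjusted p without a fold threshold, against 13.9% of genes. Their median log2 fold change was 0.45. From 50 to 100 nM the 10 were higher again, with intervals above 0, against 13% of genes, and a median log2 fold change of 0.23. Between the doses 0 were called at 2-fold, against 0.303% of genes called higher, and all 10 passed the adjusted p without a fold threshold, against 8.34%. Every one of the 10 was thus ordered DMSO, 50 nM, 100 nM with both steps beyond counting error, which held for 5.72% of all genes. Highly counted genes have narrow intervals, and 9 of the 10 had at least 783 counts in each library.

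A straight line through the 3 doses was fitted with edgeR's quasi-likelihood test, with 1 residual degree of freedom that holds the departure from the line and not the spread between replicates. All 10 transporters rose along it, with Benjamini-Hochberg adjusted p-values from 6.83e-08 for SLC7A11 to 0.00206 for SLC6A9, and 10.1% of all genes did so. DESeq2's Wald test of dose called 9, with the highest adjusted p at 0.0406, and gave none for SLC6A9, against 7.3% in either direction of the 8634 genes with an adjusted p. Between 51.4% (SLC38A2) and 78.5% (SLC3A2) of each gene's log2 rise to 100 nM was reached at 50 nM.

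**Figure D2:**
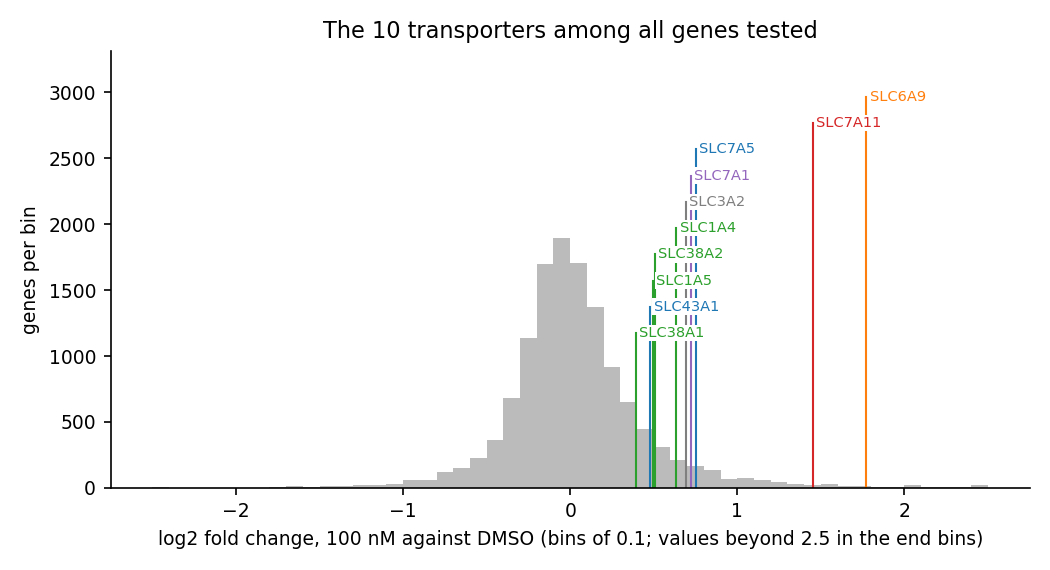
Histogram of log2 fold changes at 100 nM against DMSO over the 12879 genes tested, in grey, with vertical lines of different height, for legibility only, at the 10 transporters. All 10 lines lie to the right of the peak at 0, from 0.39 (SLC38A1) to 1.77 (SLC6A9).

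SLC7A11 is the cystine importer, which exports glutamate in exchange. Its 12 exons lie in chr4:139085248-139163503 on the minus strand (hg19, Entrez 23657). It had 783 counts in DMSO, 1517 at 50 nM and 2234 at 100 nM, or 6.80, 13.6 and 19.0 TPM. At 100 nM it was 2.74-fold higher than in DMSO, a log2 difference of 1.45 (95% interval 1.34 to 1.57), and ranked 147 from the top of the 12879 genes. From DMSO to 50 nM it was 0.98 (0.86 to 1.11), and from 50 to 100 nM 0.47 (0.38 to 0.57). Each step was thus beyond counting error, the first the larger. SLC7A11 overlaps the antisense gene SLC7A11-AS1 over 2.86% of its exonic bases, and that gene had 0 counts in every library.

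SLC3A2 is the heavy chain, in chr11:62623518-62656353 on the plus strand (Entrez 6520, 13 exons). Its counts, in the order DMSO, 50 nM, 100 nM, were 6224, 8896 and 10486. The log2 fold change was 0.54 (0.50 to 0.59) at 50 nM and 0.69 (0.65 to 0.74) at 100 nM. With a second step of only 0.15 (0.11 to 0.19), SLC3A2 had the largest share of its rise at the lower dose among the 10.

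Because SLC7A11 and SLC7A5 need SLC3A2 as a partner, their counts were set against it within each library, which does not depend on scaling. Ratios were taken for 6 pairs of transporters over 3 pairs of libraries. The ratio of SLC7A11 to SLC3A2 was 0.0340 in DMSO, 0.0460 at 50 nM and 0.0575 at 100 nM in TPM, an odds ratio at 100 nM of 1.69 (exact conditional 95% interval 1.55 to 1.85). In contrast, the ratio of SLC7A5 to SLC3A2 stayed close to its start, at 1.27, 1.20 and 1.32, with odds ratios of 0.948 (0.911 to 0.986) at 50 nM and 1.04 (1.0035 to 1.08) at 100 nM. Against SLC7A5 the odds ratio of SLC7A11 was 1.43 (1.31 to 1.57) at 50 nM and 1.62 (1.49 to 1.77) at 100 nM, so this light chain differed more from DMSO than either its heavy chain or SLC7A5.

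Of 6 light chains known to bind SLC3A2, 5 were tested. SLC7A5 made up 81.7% of their summed TPM in DMSO, 86.4% at 50 nM and 88.7% at 100 nM. SLC7A11 went from 2.19% to 3.32% and 3.87%. The shares of SLC7A6, an exchanger of cationic for neutral amino acids, were 12.6%, 7.94% and 5.63%, and those of its relative SLC7A7 3.41%, 2.19% and 1.64%. SLC7A6 and SLC7A7 were lower at 100 nM in level as well, with log2 fold changes of -0.52 (-0.60 to -0.44) and -0.42 (-0.66 to -0.18). SLC7A8 stayed at or below 33 counts, and SLC7A10 was at 0 in all libraries. Summed light chains per SLC3A2 were 1.55, 1.39 and 1.49 in TPM.

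**Figure D3:**
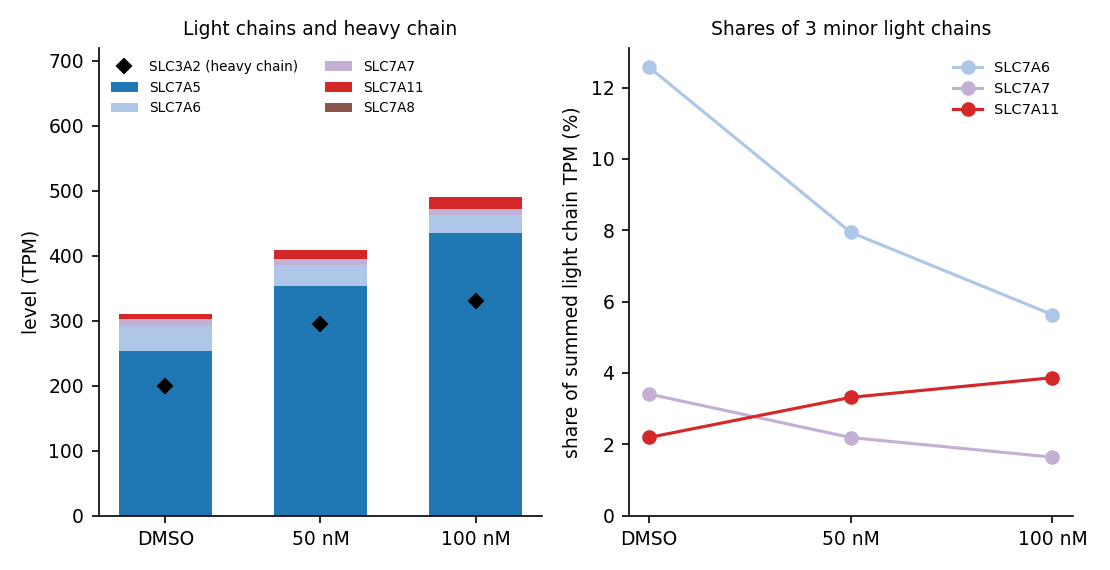
Left, stacked TPM of the SLC3A2-binding light chains in each library, with the heavy chain SLC3A2 as a diamond; right, the share of SLC7A6, SLC7A7 and SLC7A11 in the summed light chain TPM in percent. The stack grows from 310 to 491 TPM, mostly by SLC7A5, while SLC7A11 passes SLC7A7 and SLC7A6 goes from 12.6% to 5.63%.

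Among the large neutral transporters, SLC7A5 exchanges leucine and similar amino acids and is encoded in chr16:87863629-87903100 on the minus strand (Entrez 8140, 10 exons). It had 13742, 18612 and 24131 counts, and its log2 fold change was 0.47 (0.43 to 0.50) at 50 nM and 0.75 (0.72 to 0.78) at 100 nM. An unnamed gene (Entrez 100506670) on the opposite strand overlaps 17.8% of its exonic bases and had 7, 8 and 5 counts.

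SLC43A1, a facilitated carrier of the same substrates that needs no heavy chain, lies in chr11:57252007-57283159 on the minus strand (Entrez 8501). It had 2256, 2640 and 3276 counts and log2 fold changes of 0.26 (0.17 to 0.34) at 50 nM and 0.48 (0.40 to 0.56) at 100 nM. The ratio of SLC7A5 to SLC43A1 went from 3.35 to 3.88 and 4.05 in TPM, with an odds ratio of 1.21 (1.14 to 1.28) at 100 nM, so SLC7A5 moved more.

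The small neutral transporters were the most abundant class, at 504 TPM in sum in DMSO and 725 TPM at 100 nM. Their share of the 10 went from 45.2% to 41.5%. The class ratio of 100 nM to DMSO was 1.44, against 1.65 for the large neutral class and 1.68 for SLC7A1, the only cationic gene of the 10. These are ratios of TPM, and they depend on which genes were listed. On the scaled counts used for the fold changes, SLC7A2, a cationic carrier outside the 10, was 1.19-fold higher, and SLC7A1 1.65-fold. At 100 nM SLC1A4 (small neutral) had a larger log2 fold change, 0.63, than SLC43A1 (large neutral), 0.48. SLC1A5, the main glutamine exchanger of many tumor cells, lies in chr19:47278140-47291842 on the minus strand (Entrez 6510). It had 11023, 13273 and 16174 counts and log2 fold changes of 0.30 (0.26 to 0.33) at 50 nM and 0.49 (0.46 to 0.53) at 100 nM. Its paralog SLC1A4, an exchanger of alanine, serine and cysteine in chr2:65215579-65250999 on the plus strand (Entrez 6509), had 1661, 2215 and 2686 counts and log2 fold changes of 0.44 (0.35 to 0.54) and 0.63 (0.55 to 0.72). The odds ratio of SLC1A4 to SLC1A5 was 1.11 (1.03 to 1.19) at 50 nM, 1.10 (1.03 to 1.18) at 100 nM, and 0.995 (0.936 to 1.06) between the doses. The paralogs differed at the first step, and no difference was detectable at the second.

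The sodium-coupled pair SLC38A1 and SLC38A2, the system A carriers of glutamine and alanine, lie on chromosome 12, in chr12:46576838-46663208 and chr12:46751971-46766645, both on the minus strand (Entrez 81539 and 54407). SLC38A1 had 4478, 5235 and 6121 counts and log2 fold changes of 0.25 (0.20 to 0.31) at 50 nM and 0.39 (0.34 to 0.45) at 100 nM, the smallest value of the 10 at 100 nM, with an interval that overlaps that of SLC43A1. SLC38A2 had 8293, 9738 and 12276 counts and log2 fold changes of 0.26 (0.22 to 0.30) and 0.51 (0.47 to 0.55). Their ratio did not differ beyond counting error at 50 nM, with an odds ratio of 1.004 (0.956 to 1.06), and it did at 100 nM, with 1.08 (1.03 to 1.14).

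SLC7A1, the carrier of arginine, lysine and ornithine, lies in chr13:30083551-30169825 on the minus strand (Entrez 6541, 13 exons). Counts of 6577, 8793 and 11293 gave log2 fold changes of 0.45 (0.40 to 0.49) at 50 nM and 0.72 (0.68 to 0.77) at 100 nM. Its level, which could not be told from that of SLC43A1 in DMSO, was above it at both doses, at 103.4 and 126 TPM. SLC7A2, another cationic carrier and not one of the 10, was higher by 0.25 (0.20 to 0.31) on the log2 scale at 100 nM, with 5114, 5860 and 6349 counts.

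SLC6A9, a sodium- and chloride-coupled glycine carrier, lies in chr1:44462155-44497134 on the minus strand (Entrez 6536, 16 exons). It had 21 counts in DMSO, 40 at 50 nM and 76 at 100 nM. This was a 3.42-fold difference between 100 nM and DMSO, 1.77 (1.08 to 2.57) on the log2 scale, the largest of the 10 and rank 84 of all genes tested, with an interval that overlaps that of SLC7A11. At 50 nM it was 0.94 (0.16 to 1.79). With so few reads the order of the top members cannot be settled. On the opposite strand CCDC24 overlaps 1.26% of its exonic bases and had 5, 10 and 17 counts. The strand setting of the counting was not stated, so whether reads of CCDC24 are counted in SLC6A9 was not tested.

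Across the 10, the Spearman correlation between DMSO TPM and the log2 fold change at 100 nM was -0.37, with SLC6A9 and SLC7A11 lowest in level and highest in change. It is a description over 10 genes whose values share the DMSO library. The other genes did not line up by level. SLC7A5, at 254 TPM in DMSO, was at 0.75, and SLC38A1, at 44.2 TPM, at 0.39. SLC1A4, at 29.1 TPM, was at 0.63.

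Other plasma membrane amino acid transporters were then looked at from a list of 29, of which 8 were tested and 17 were at 0 counts in DMSO. This list too was drawn up with earlier results known, so its contrast with the 10 is a description and not a test. Here 1 was higher and 6 were lower with an interval off 0, against 23.8% and 25.5% of all genes. At 2-fold 0 were called, against 2.35% of genes in either direction, and the median log2 fold change at 100 nM was -0.33. The lower ones were SLC1A3, a glutamate carrier, at -0.73 (-1.01 to -0.47), SLC7A6 and SLC7A7, SLC38A5 at -0.40 (-0.49 to -0.30), SLC43A2 at -0.25 (-0.46 to -0.05) and SLC6A6, a taurine carrier, at -0.15 (-0.24 to -0.06). Their summed level was 238 TPM in DMSO and 210 TPM at 100 nM, whereas that of the 10 transporters went from 1116 to 1480 and 1745 TPM. Members of one family went in opposite directions: SLC43A1 was higher and SLC43A2 lower, and SLC38A2 higher and SLC38A5 lower.

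**Figure D4:**
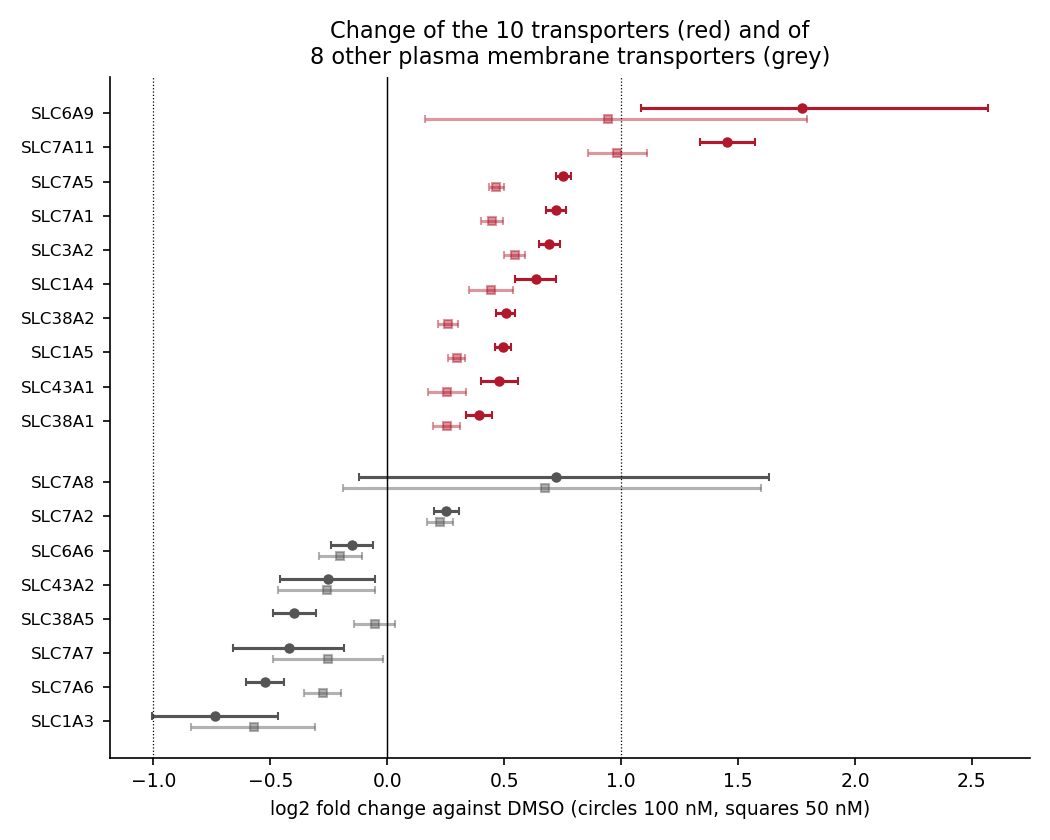
Log2 fold change against DMSO of the 10 transporters (red) and of the 8 other plasma membrane amino acid transporters tested (grey), at 100 nM (circles) and 50 nM (squares), with 95% counting intervals. Red points all lie above 0 at both doses, and 6 of the 8 grey genes lie below 0 at 100 nM with intervals off 0.

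Carriers of other membranes, most but not all of them for amino acids, gave medians closer to 0. Of 11 lysosomal and vesicular transporters 10 were tested, 0 were higher and 3 lower with an interval off 0, against 23.8% and 25.5% of all genes. The median at 100 nM was -0.06. MFSD12, a cysteine importer of lysosomes and melanosomes, was the most abundant at 62.5 TPM in DMSO and differed by 0.04 (-0.05 to 0.12) on the log2 scale. SLC15A4 was at -0.16 (-0.32 to 0.01) and SLC38A9, an arginine sensor, at 0.10 (-0.07 to 0.28). Of 14 mitochondrial carriers 12 were tested, 1 was higher and 6 lower, against the same 23.8% and 25.5% of all genes, with a median of -0.13. The most abundant of them were SLC25A39, a glutathione carrier, at -0.23 (-0.33 to -0.14), SFXN1, a serine carrier, at -0.40 (-0.48 to -0.32), and SLC25A15, an ornithine carrier, at -0.01 (-0.10 to 0.07). Of the other 405 genes with an SLC symbol, 211 were tested, 3 were called higher (1.42%, against 1.84% of all genes), and the median was -0.05.

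Regulators of these transporters were read from a list of 13, of which 12 were tested. At 100 nM, 8 were higher and 1 lower with an interval off 0, against 23.8% and 25.5% of all genes. The median log2 fold change was 0.32, and only DDIT3 was called, against 2.35% of genes in either direction. ATF4, the factor described above, had 12788, 16646 and 18669 counts and a log2 fold change of 0.49 (0.45 to 0.52). Its partners CEBPB and CEBPG were at 0.69 (0.46 to 0.93) and 0.41 (0.34 to 0.47), and DDIT3, a stress-induced factor of the same family, at 1.02 (0.80 to 1.25) with 236, 319 and 500 counts. NFE2L2, which controls antioxidant genes and SLC7A11, was at 0.16 (0.08 to 0.23). Of genes known to hold transporters or NFE2L2 in check, BAP1 was at -0.18 (-0.26 to -0.10), ATF3 at 0.65 (0.40 to 0.91), BACH1 at 0.09 (-0.06 to 0.23) and KEAP1 at 0.03 (-0.03 to 0.10). These are mRNA levels, and neither protein nor translation is measured by these libraries. In separate Western blots of Molm13 cells, the authors reported that ATF4 protein rose with dose and time. By q-RT-PCR, at a later time than these libraries, they also reported a rise with dose of ATF4-regulated genes. These included genes for making or carrying amino acids.

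The genes whose pair of log2 fold changes lay nearest those of SLC7A11, among the 9787 genes that reached 100 counts in every library, were STC2, ASNS, C5, an unnamed gene (Entrez 645460) and PCYOX1L. STC2, a secreted glycoprotein, had 634, 1225 and 1897 counts and lay at a Euclidean distance of 0.07. ASNS, asparagine synthetase, had 2162, 3978 and 5853 counts at a distance of 0.11. Nearest SLC3A2 were RALGAPA1, FBXW4, H2BC12, PPCS and NEMP2, all within 0.05. Nearest the median of the 10 were DET1, TMEM116, DNAL4, CADM1 and ETFRF1. With only 3 libraries this likeness describes 2 differences and nothing more.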

How the data were processed

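Strand-specific mRNA libraries were sequenced in pairs of 75 bases by the authors, who used Rsubread for alignment to hg19; the deposited values are raw counts per Entrez gene. Tool versions and the strand setting of the counting are not given in the sources used here, so genes that overlap on opposite strands are uncertain. The authors also deposited their own EBSeq comparisons (posterior probabilities, fold changes and means), of which only the pairing of identifiers and symbols was used. One label writes the higher dose without its prefix, and the titles' 100 nM was used.

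Counts of 22677038 to 24075123 per library were scaled by TMM (edgeR 4.0.16, R 4.3.3). Genes that reached 10 counts in any library were compared by a two-sided exact binomial test (scipy 1.17.1) with Benjamini-Hochberg adjustment over all 12879, and called past 2-fold with an adjusted p up to 0.05. Log2 fold changes had 0.5 counts added and 95% Clopper-Pearson intervals. Levels (TPM) used listed exonic lengths, with exact Poisson intervals, and ratios of transporters exact conditional intervals. A count of 0 allows up to 3 counts, at most 1.32e-05% of a library. Dose trends used edgeR's quasi-likelihood test, with DESeq2 1.42.0 as an alternative. The code was tested on simulated data, with a pass condition set only for counts without spread between replicates.

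The 10 transporters and the gene lists were chosen with earlier results of these data known. Named were all 10, the 5 nearest patterns, any light chain, regulator or marker, and from other lists genes changed 2-fold with at least 50 counts or among the 3 highest in DMSO. SLC1A3, SLC6A6 and SLC43A2 fall outside this rule and were chosen with their values in view. Alternatives covered scaling, filter, counts added, fold threshold, mitochondrial genes and an assumed biological coefficient of variation (BCV).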

Additional observations from a re-analysis of the deposited data

How the results depend on the processing

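Scaling by DESeq2 size factors, total counts or TMM without mitochondrially encoded genes moved all log2 fold changes by at most 0.0032, and all 120 alternative values of single fold changes kept direction and side of the threshold. Without mitochondrially encoded genes the levels in a library were all higher by a common factor, 1.12 in DMSO, 1.10 at 50 nM and 1.10 at 100 nM. In DMSO 9 of the 10 levels thereby moved beyond their counting intervals, and all 10 kept their place in the order. The number of transporters called depended on the fold threshold and on the replicate spread that was assumed. At 100 nM against DMSO 2 were called. A 1.5-fold threshold called 6 (4.43% of genes higher) and no fold threshold 10 (21.2%). With an assumed BCV of 0.1 (edgeR's exact test) 2 were called at 2-fold (0.885%) and 5 without a fold threshold (1.37%, chosen after seeing the data). With a BCV of 0.2 the count was 0, with and without a fold threshold (0.0932% of genes higher by either rule). With a BCV of 0.4 it was also 0, and 0 of all genes were called higher by either rule. At an unadjusted p of at most 0.05 in the same test, it was 2 at a BCV of 0.2 (1.86%) and 0 at 0.4 (0.326%). At 50 nM 0 were called, 1 at 1.5-fold (1.79%), 9 without a fold threshold (13.9%), and 1 with a BCV of 0.1 and no fold threshold (0.194%). Between the doses 0 were called, 1 at 1.5-fold (0.846%) and 10 without a fold threshold (8.34%). The trend called 10 with DESeq2 size factors (19.9% of genes in either direction) or no filter (17.6%), and 9 with DESeq2 (7.3%), which gave no adjusted p for SLC6A9. No paired analysis was possible because each condition has 1 library.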

Other observations

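Among the 211 other tested genes with an SLC symbol, 3 were called higher and 2 lower at 100 nM, against 1.84% and 0.512% of all genes. Of these only SLC2A11, a sugar carrier, had at least 50 counts in a library. Its counts were 21, 50 and 65 in the order DMSO, 50 nM, 100 nM, and the log2 fold change at the higher dose was 1.55 (0.84 to 2.36). The most abundant of these genes in DMSO were the mitochondrial ADP/ATP carriers SLC25A5 and SLC25A6 and the phosphate carrier SLC25A3, with log2 fold changes at 100 nM of -0.0032 (-0.04 to 0.03), 0.40 (0.37 to 0.42) and 0.07 (0.04 to 0.10). SLC6A12, a carrier of betaine and GABA and a relative of SLC6A9, had 8, 17 and 45 counts and was named after its values were seen. Of the 9 myeloid markers, 2 were higher and 2 lower at 100 nM with an interval off 0, against 23.8% and 25.5% of all genes. On the log2 scale FLT3 was at 0.77 (0.72 to 0.81) and MPO at 0.57 (0.35 to 0.79). SPI1 was at -0.32 (-0.40 to -0.24) and CD33 at -0.095 (-0.185 to -0.0047). HBB, an erythroid gene, had 16 counts in the 50 nM library and 0 in the others.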
